A study of Mus musculus with 31 samples.

Results

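The genes described here carry out antigen presentation by MHC class II: Cd74, Ciita, H2-Aa, H2-Ab1, H2-Eb1, H2-DMa, H2-DMb1, H2-DMb2, H2-Oa and H2-Ob. They were taken by symbol from a deposited count table of 39017 genes, which held 10 of the 10, and 10 of 10 passed the filter on low counts in every fit. The 31 mRNA libraries come from mouse breast tumours grown in the mammary site of mice of the matching strain. The tumours belong to models titled 4T1 and MT, and each group has 4 libraries, apart from the 3 of 4T1 phenformin. The combination arms received poly I:C and phenformin, the poly I:C arms received poly I:C and PBS, the phenformin arms received phenformin and saline, and the control arms received saline and PBS. Poly I:C mimics viral double-stranded RNA and is sensed by Toll-like receptor 3. Phenformin is a drug of the biguanide class that blocks mitochondrial complex I. All libraries carry the genotype tag WT, and dose, timing, age and sex are not given in the sources used here.

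The titles and the design text place 4T1 in BALBc mice and MT in FVB mice. The strain and cell line tags say the reverse, with FVB and MT4788 on the libraries titled 4T1 and BALBc and 4T1-537 on those titled MT. Groups here follow the titles. BALB/c mice express both chains of the class II E molecule, and FVB mice lack the molecule, its alpha chain included, so a class II gene bears on this conflict. H2-Ea-ps, the annotated name of that alpha chain gene, had 222 to 1011 CPM (counts scaled by library size) across the 15 4T1-titled libraries and 5.42 to 50.9 CPM across the 16 MT-titled ones, which goes with the titles and against the strain tags. The titles number the replicates without saying whether each was its own mouse, and p-values therefore reflect only the variation among the libraries at hand. Total counts ran from 12160110 to 19849915 per library. The protocol names both cell pellets and frozen tissue as RNA sources without saying which applied here. Fewer cells that express a gene and less RNA per cell cannot be told apart in bulk samples.

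MHC class II molecules are pairs of an alpha and a beta chain that show peptides from the endosome to CD4 T cells. The invariant chain, encoded by Cd74, fills and escorts the new pairs, H2-DM then exchanges its last fragment for a peptide, and H2-O restrains H2-DM. Ciita encodes the coactivator that switches the whole set on through a complex of RFX, CREB and NF-Y proteins at conserved promoter boxes. Macrophages, dendritic cells and B cells express the set constitutively or on activation, H2-O being typical of B cells, and interferon gamma can induce it in many other cells.

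The boxes that RFX and NF-Y bind are shown here as a description of the promoters, and their part in the levels below was not tested. The RefSeq promoter table (build GRCm38.p6, of the C57BL/6J strain) held an entry for 7 of the 10 members. In the 250 bases before the start of the gene, read on both strands, TGATTGG, the core of the Y box, was found in 6 of these 7. The longer motif of the X box, spelled AAC, any 2 bases and then ATGATG, stood beside it in 4 of them. TGATTGG occurred in 7.23% and the X box motif in 0.119% of 32851 promoter entries, and 9 entries (0.0274%) held both. Apart from the 4 members, the entries with both belong to Gm38969, Nubp2 and Spsb3. The letters of both motifs were chosen after these promoters had been seen, and the motifs do not overlap each other. Below are the 100 bases that end 31 bases before the start, 5′ to 3′ on the strand of the gene, with the X and Y boxes in capitals.

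H2-Eb1 promoter, chr17:34305737-34305836, plus strand: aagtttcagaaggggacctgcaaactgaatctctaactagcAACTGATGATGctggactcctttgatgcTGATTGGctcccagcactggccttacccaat
H2-DMb1 promoter, chr17:34153061-34153160, plus strand: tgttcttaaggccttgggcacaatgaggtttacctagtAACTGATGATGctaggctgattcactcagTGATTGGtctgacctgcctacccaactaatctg
H2-DMb2 promoter, chr17:34145119-34145218, plus strand: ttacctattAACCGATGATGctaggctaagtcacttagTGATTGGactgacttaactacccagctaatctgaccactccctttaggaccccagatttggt
H2-Ob promoter, chr17:34238775-34238874, plus strand: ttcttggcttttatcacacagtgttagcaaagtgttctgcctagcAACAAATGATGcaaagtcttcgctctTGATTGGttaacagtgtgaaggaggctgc
H2-Aa promoter, chr17:34287854-34287953, minus strand: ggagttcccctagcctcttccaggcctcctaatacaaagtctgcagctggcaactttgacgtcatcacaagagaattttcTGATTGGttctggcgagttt

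The first letters of both boxes stood 29 bases apart in H2-DMb1 and H2-DMb2, 28 in H2-Eb1 and 26 in H2-Ob. H2-Aa had the Y box letters only, as had H2-Oa. H2-DMa had neither box in either of its entries, whose windows begin at chr17:34122702 and chr17:34125388, within the annotated span of the gene. Other possible starts of H2-DMa were not searched. A match is a description of these letters and not of binding, and the tumours come from other strains than the reference.

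**Figure D1:**
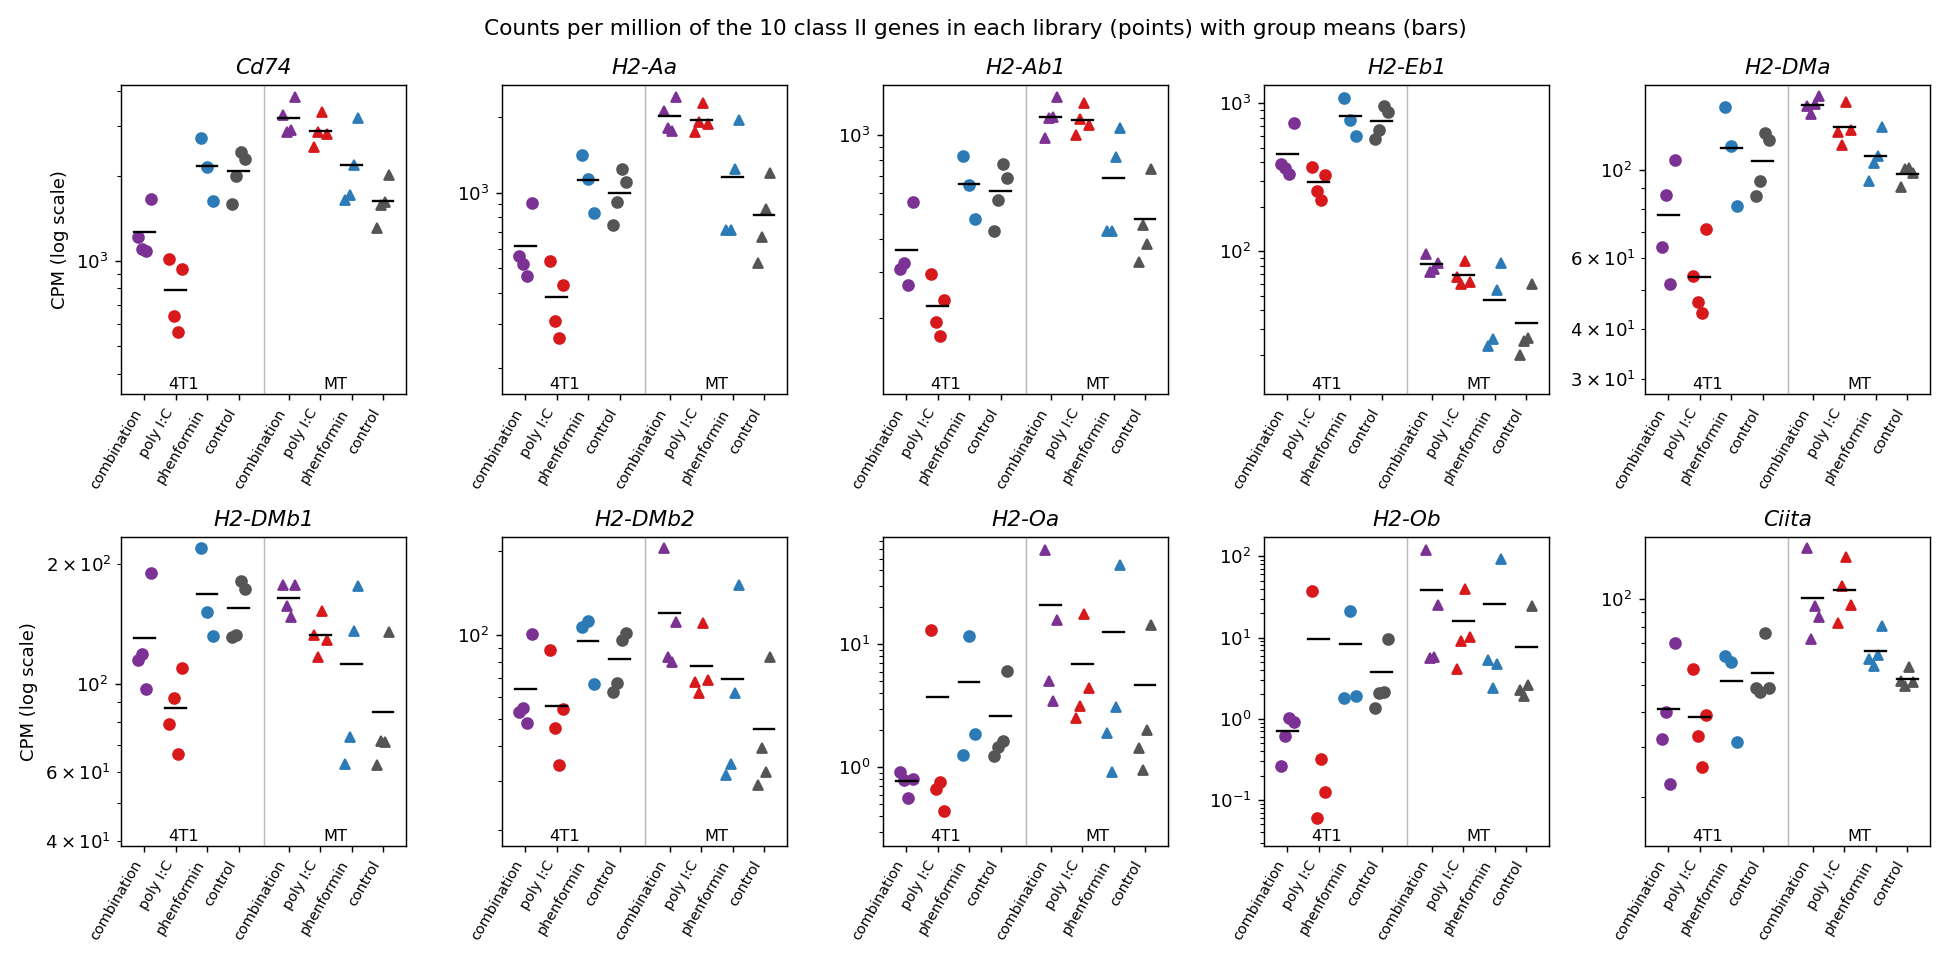
CPM (log scale) of each of the 10 genes in the 31 libraries. Each point is a library (circles 4T1, triangles MT), each black bar the group mean, and the arms run combination, poly I:C, phenformin and control within each model; the 4 poly I:C libraries of Cd74, H2-Aa, H2-Ab1 and H2-Eb1 lie below the 4 controls in 4T1, and those of Cd74, H2-Aa and H2-Ab1 above them in MT.

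With poly I:C alone, the members called against controls were lower in 4T1 tumours and higher in MT tumours. In 4T1 tumours 6 of the 10 fell against controls and 0 rose, and in MT tumours 5 of the 10 rose and 0 fell (edgeR quasi-likelihood test, adjusted p under 0.05). Over all genes tested, 6.32% were called in 4T1 (3.26% higher and 3.06% lower) and 19.6% in MT (8.52% higher and 11.1% lower). The median log2 fold change of the members was -0.88 in 4T1 and 0.95 in MT, beside 0.01 over all genes in each. Both counts depended on tissue content, as described further below. The 4T1 count was 0 without the libraries with the muscle actin Acta1 above 10 CPM, where 0% of all genes were called. In MT the count was 0 with log2 Krt5 to Sox10 as a covariate, where 9.04% of all genes were called. The difference of the responses, 4T1 minus MT, was below 0 and passed the test for 7 of the 10 members, where 11.1% of all genes were called (5.7% higher and 5.42% lower). These were Cd74, Ciita, H2-Aa, H2-Ab1, H2-Eb1, H2-DMa and H2-DMb1, and that count was 3 (Cd74, H2-Aa and H2-Ab1) without the MT libraries with Sox10 above 10 CPM, where 2.27% of all genes were called.

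Cd74, the invariant chain (ENSMUSG00000024610, chr18:60803848-60812652), was the most abundant member per kilobase in every group. In 4T1 tumours it had 1015, 642, 559 and 938 CPM with poly I:C, against 1598, 2009.6, 2439 and 2291 CPM in controls. All 4 poly I:C libraries were below all 4 controls, and the log2 fold change was -1.38 ± 0.22 (SE, edgeR adjusted p = 0.00694). In MT tumours Cd74 had 2544, 2872, 3368 and 2811 CPM with poly I:C, against 1315, 1579, 1619.5 and 2017 CPM in controls. There all 4 poly I:C libraries were above all 4 controls, with a log2 fold change of 0.85 ± 0.21 (SE, edgeR adjusted p = 0.0161). The responses of the models differed by -2.23 ± 0.31 on the log2 scale (SE, edgeR adjusted p = 7.26e-05).

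H2-Aa and H2-Ab1 encode the alpha and beta chain of the A molecule, the class II molecule that all common mouse strains make. In 4T1 tumours H2-Aa (ENSMUSG00000036594, chr17:34282744-34287823) had 535, 308, 265 and 431 CPM with poly I:C, against 742, 919, 1241 and 1107 CPM in controls. H2-Ab1 (ENSMUSG00000073421, chr17:34257689-34269419) had 294, 193, 171 and 234 CPM with poly I:C, against 431, 565, 773 and 688 CPM in controls. Neither gene overlapped between the groups, and they fell by nearly the same amount, at -1.36 ± 0.26 and -1.44 ± 0.26 log2 (SE, edgeR adjusted p = 0.0123 and 0.0101). In MT tumours H2-Aa had 1742, 1908, 2279.8 and 1885 CPM with poly I:C, against 526, 666, 859 and 1201 CPM in controls. H2-Ab1 had 1004, 1153, 1326 and 1095 CPM with poly I:C, against 328, 454, 382 and 743 CPM in controls. Both rose without overlap, by 1.28 ± 0.32 and 1.28 ± 0.31 log2 (SE, edgeR adjusted p = 0.0149 and 0.0124). Control replicate 4 was the highest MT control for both genes. The ratio of the chains moved little, since log2 H2-Aa per H2-Ab1 ran from 0.631 to 0.883 in the 15 libraries titled 4T1 and from 0.553 to 1.17 in the 16 titled MT.

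H2-Eb1, the beta chain of the E molecule (ENSMUSG00000060586, chr17:34305867-34316674), fell with poly I:C in 4T1 tumours and differed widely between the models. It had 373, 256, 223 and 328 CPM with poly I:C in 4T1, against 574, 665, 955 and 869.9 CPM in controls, a log2 fold change of -1.36 ± 0.27 (SE, edgeR adjusted p = 0.0141). In MT it had 66.7, 59.9, 86.1 and 62.4 CPM with poly I:C, against 19.9, 24.7, 25.7 and 60.05 CPM in controls. Control replicate 4 reached the lower poly I:C libraries, and the log2 fold change of 1.10 ± 0.40 (SE) missed the threshold (edgeR adjusted p = 0.0671). Without that control library it was 1.57, with an edgeR adjusted p = 0.00753. The controls then left, replicates 1 to 3, had Sox10 above 10 CPM. Over the 9 alternatives other than leaving out 1 library, the log2 fold change ran from 0.04 to 1.43. H2-Ea-ps, the partner chain, fell by 1.34 ± 0.27 log2 with poly I:C in 4T1 (edgeR adjusted p = 0.0142), and its log2 fold change in MT was 1.45 ± 0.53 (adjusted p = 0.0657).

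Untreated tumours of the models differed most in H2-Eb1 by log2 fold change among the 10 members. The control comparison, 4T1 over MT, called 2 of the 10 members higher and 0 lower, while 51.9% of all genes were called (26.7% higher and 25.2% lower). H2-Eb1 was higher by 4.56 ± 0.41 log2 (SE, edgeR adjusted p = 1.84e-09), with no overlap, and H2-DMb1 by 0.86 ± 0.28 (adjusted p = 0.0108), where MT control replicate 4 overlapped the 4T1 controls. Without the MT libraries with Sox10 above 10 CPM, H2-DMb1 stood at 0.20 (edgeR adjusted p = 0.655). H2-Eb1 amounted to 113 to 140.2% of the H2-Ab1 level, as CPM, over the arms of 4T1 and 5.19 to 9.83% over those of MT. These ranges did not overlap under any arm, so the H2-Eb1 gap between models was there in treated and untreated tumours. Reads were aligned to the C57BL/6J genome, whose class II alleles differ from those of both strains, and the part of alignment in this gap was not tested. Gm20513, an annotated antisense transcript, overlaps H2-Eb1 as well. Strain and cell line go with the model here, so their parts in the gap cannot be told apart.

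**Figure D2:**
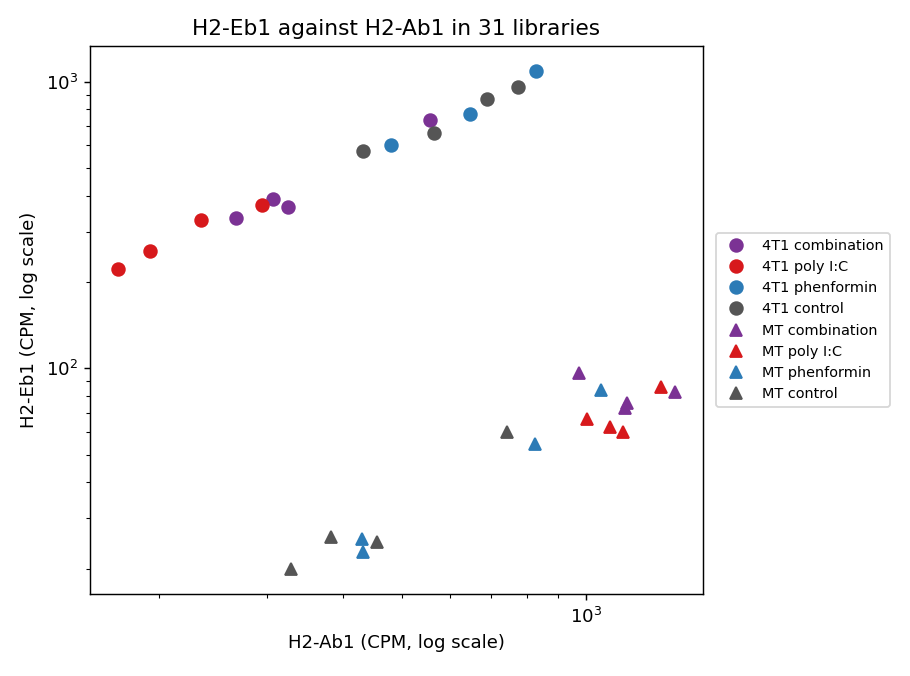
H2-Eb1 against H2-Ab1 in CPM, both on log scales, with 1 point per library (circles 4T1, triangles MT, colours for the arms). The libraries titled 4T1 follow a line with H2-Eb1 above H2-Ab1 and those titled MT a lower line with H2-Eb1 at 5.19% to 9.83% of H2-Ab1.

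H2-DM, the peptide exchanger, pairs the product of H2-DMa with that of H2-DMb1 or H2-DMb2. In 4T1 tumours H2-DMa (ENSMUSG00000037649, chr17:34119541-34139101) had 54.1, 46.6, 43.8 and 71.1 CPM with poly I:C, against 85.8, 93.5, 124 and 119 CPM in controls. It fell without overlap, by 0.95 ± 0.23 log2 (SE, edgeR adjusted p = 0.0309). In MT tumours it had 124, 115, 148 and 126 CPM with poly I:C, against 90.4, 101, 101 and 98.0 CPM in controls, and rose by 0.41 ± 0.11 log2 (SE, edgeR adjusted p = 0.0169). That was the smallest log2 change among the members called in MT. Brd2 and Gm20493 overlap H2-DMa on the other strand.

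H2-DMb1 (ENSMUSG00000079547, chr17:34153072-34160230) fell in 4T1 by 0.81 ± 0.22 log2 (SE, edgeR adjusted p = 0.046). It had 79.2, 92.2, 66.3 and 109 CPM with poly I:C, against 131, 133, 181 and 174 CPM in controls. In MT it had 132, 117, 152 and 129 CPM with poly I:C, against 62.3, 71.5, 71.2 and 135 CPM in controls. The MT groups overlapped through control replicate 4, and the log2 fold change of 0.66 ± 0.30 (SE) did not pass (edgeR adjusted p = 0.134). Without that control it was 0.97 with an edgeR adjusted p = 0.0207, and the controls left had Sox10 above 10 CPM. Over the 9 alternatives other than leaving out 1 library, the log2 fold change ran from -0.19 to 0.89. The balance of the DM chains differed among MT controls: log2 H2-DMb1 per H2-DMa was 0.09, 0.02, 0.05 and 0.03 with poly I:C and -0.54, -0.49, -0.50 and 0.46 in controls. In 4T1 it ran from 0.404 to 0.984 over all arms.

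H2-DMb2 (ENSMUSG00000037548, chr17:34143307-34151555) did not pass in either model. It had 88.5, 46.2, 34.2 and 54.4 CPM with poly I:C in 4T1, against 62.2, 67.2, 96.2 and 101 CPM in controls (-0.53 ± 0.29 log2, SE, edgeR adjusted p = 0.289). In MT it had 67.6, 61.9, 110.3 and 68.7 CPM with poly I:C, against 29.0, 39.2, 32.1 and 83.2 CPM in controls (0.77 ± 0.50 log2, SE, edgeR adjusted p = 0.281). The longest transcripts of H2-DMb1 and H2-DMb2 were 71.8% identical and shared 26.6% and 25.2% of their 50-base words, so the split of reads between these neighbours is uncertain.

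H2-Oa and H2-Ob encode the alpha and beta chain of H2-O, the brake on H2-DM, and their levels followed single libraries rather than arms. H2-Oa (ENSMUSG00000024334, chr17:34092340-34095234) had 13.0, 0.661, 0.767 and 0.441 CPM with poly I:C in 4T1, against 1.24, 1.47, 1.65 and 6.02 CPM in controls. H2-Ob (ENSMUSG00000041538, chr17:34238903-34254414) had 37.7, 0.0601, 0.319 and 0.126 CPM with poly I:C, against 1.34, 2.07, 2.13 and 9.69 CPM in controls. In both genes poly I:C replicate 1 was the highest 4T1 library and the other three poly I:C libraries were below every control. The fitted log2 fold changes of 0.54 ± 0.96 and 1.34 ± 1.36 (SE, edgeR adjusted p = 0.78 and 0.591) turned to -1.996 and -4.40 without that library (edgeR adjusted p = 0.154 and 0.0513). Without the 3 libraries of 4T1 with the antibody gene Igkc above 100 CPM, that one included, they were -1.19 and -3.39. H2-Ob then passed (edgeR adjusted p = 0.083 and 0.032), with 1, 5 and 2 reads in poly I:C replicates 2, 3 and 4. That fit called 4 members, Cd74, H2-Aa, H2-Ab1 and H2-Ob, where 1.49% of all genes were called. H2-Eb1, H2-DMa and H2-DMb1 lost their calls in it.

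In MT tumours H2-Oa had 2.54, 3.17, 17.7 and 4.42 CPM with poly I:C, against 1.43, 0.956, 2.01 and 14.3 CPM in controls. H2-Ob had 4.13, 9.06, 40.1 and 10.2 CPM with poly I:C, against 2.29, 1.91, 2.61 and 24.2 CPM in controls. Replicate 3 of poly I:C and replicate 4 of the controls stood above the rest of their groups. The combination libraries had 119, 5.58, 5.77 and 25.2 CPM of H2-Ob and the phenformin libraries 5.23, 2.39, 4.67 and 91.8 CPM, again with replicates 1 and 4 high with the combination and replicate 4 high with phenformin. In 4T1, H2-Ob had 0.263, 0.621, 1.009 and 0.916 CPM with the combination and 1.82, 21.5 and 1.88 CPM with phenformin, where replicate 2 was high. BC051537 overlaps H2-Oa on the other strand.

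Markers of B and plasma cells were high in the same libraries, although 0 of the 10 passed in any comparison (edgeR). Their summed level over 10 markers was 1408, 2.71, 8.11 and 1.51 CPM in the 4T1 poly I:C libraries, against 73.9, 5.51, 16.1 and 268 CPM in 4T1 controls. In MT tumours it was 46.0, 39.1, 4011 and 386 CPM with poly I:C, against 5.63, 28.9, 22.4 and 822 CPM in controls. Across libraries of a model, of 15 relations computed in each, log2 H2-Ob and the log2 sum had a Pearson r of 0.87 in 4T1 (n = 15, Spearman rho 0.79) and 0.95 in MT (n = 16, rho 0.89). Without the 2 libraries farthest from the median sum, r was 0.73 in 4T1 and 0.92 in MT. For H2-Oa these r were 0.86 in 4T1 and 0.96 in MT, and 0.66 and 0.94 without those libraries.

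The ratio of H2-DMb2 to H2-DMb1 moved with the same libraries. It was above 1 in 4T1 poly I:C replicate 1 and MT combination replicate 1 only, with log2 values of 0.16 and 0.21, while the median was -0.98 over the libraries titled 4T1 and -0.91 over those titled MT. Against the marker sum its r was 0.74 in 4T1 and 0.87 in MT, on the log2 scale. These points share library depth and scaling, and within 4T1 the r of the ratio was 0.39 without the 2 farthest libraries. Cd74 had an r of 0.26 with the B and plasma cell sum in 4T1 and of 0.78 in MT. The part of B cells in any member's result was not tested.

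**Figure D3:**
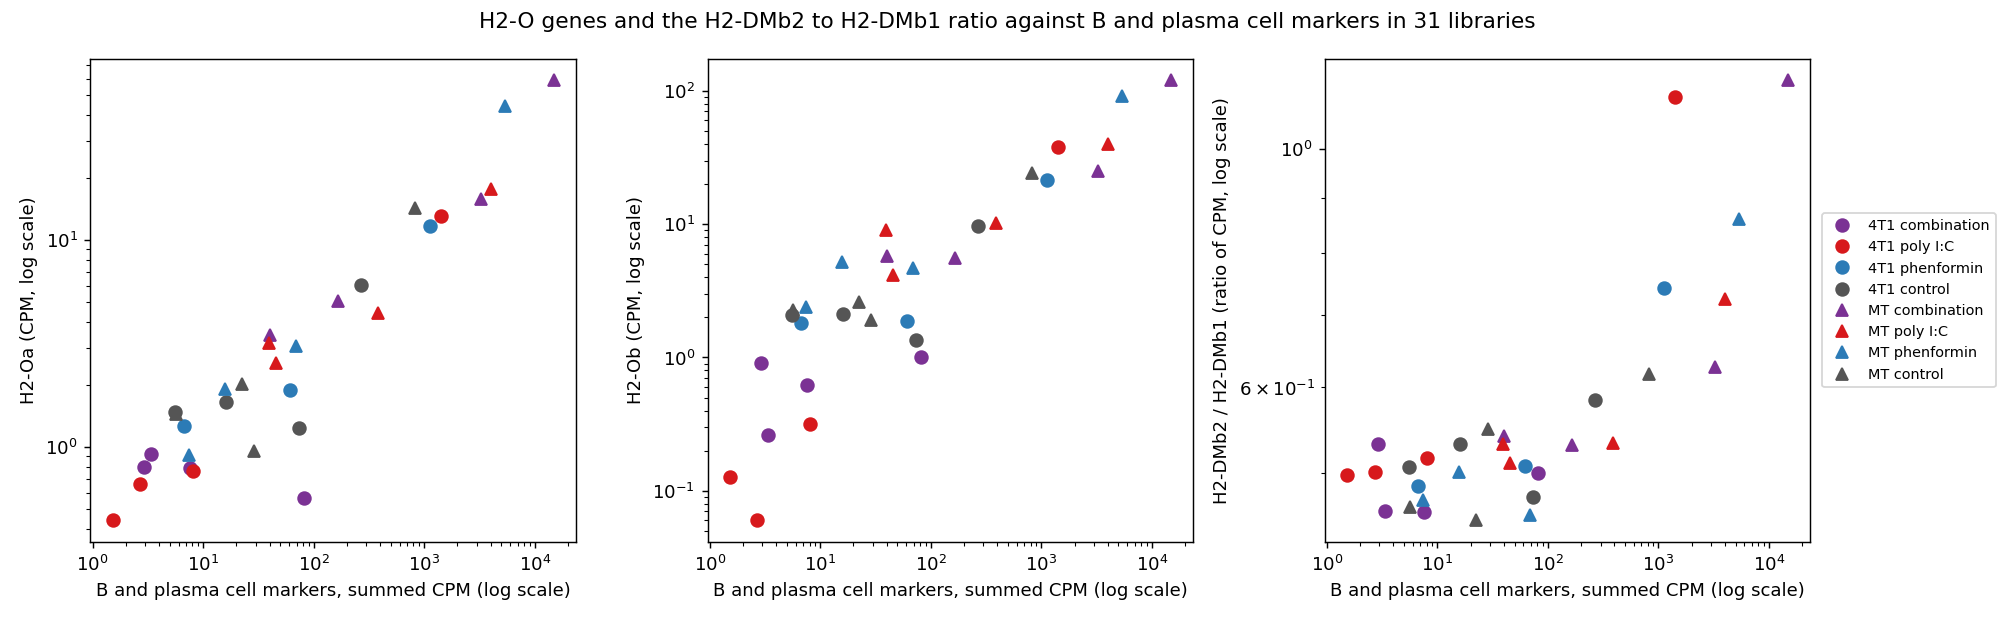
H2-Oa, H2-Ob (CPM) and the ratio of H2-DMb2 to H2-DMb1 against the summed CPM of 10 B and plasma cell markers, with 1 point per library (circles 4T1, triangles MT, colours for the arms) and log scales on both axes. H2-Oa and H2-Ob are high in the libraries on the right, and the ratio is highest in MT combination replicate 1 and 4T1 poly I:C replicate 1.

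Ciita, the coactivator (ENSMUSG00000022504, chr16:10480059-10528418), rose with poly I:C in MT and did not pass in 4T1. In MT tumours it had 82.1, 112, 141 and 95.4 CPM with poly I:C, against 51.3, 49.4, 57.5 and 50.9 CPM in controls. The groups did not overlap, and the log2 fold change was 1.06 ± 0.22 (SE, edgeR adjusted p = 0.00597). In 4T1 tumours it had 56.6, 32.8, 25.6 and 39.0 CPM with poly I:C, against 48.5, 46.9, 75.9 and 48.4 CPM in controls, a log2 fold change of -0.50 ± 0.33 (SE, edgeR adjusted p = 0.383). Poly I:C replicate 1 overlapped the controls there, while H2-Ab1 of the same library did not. Log2 Ciita and log2 H2-Ab1 had an r of 0.75 over the 15 libraries titled 4T1 and 0.75 over the 16 titled MT. Dexi overlaps Ciita on the other strand, and the strand setting of the counting is not given in the sources used here.

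**Figure D4:**
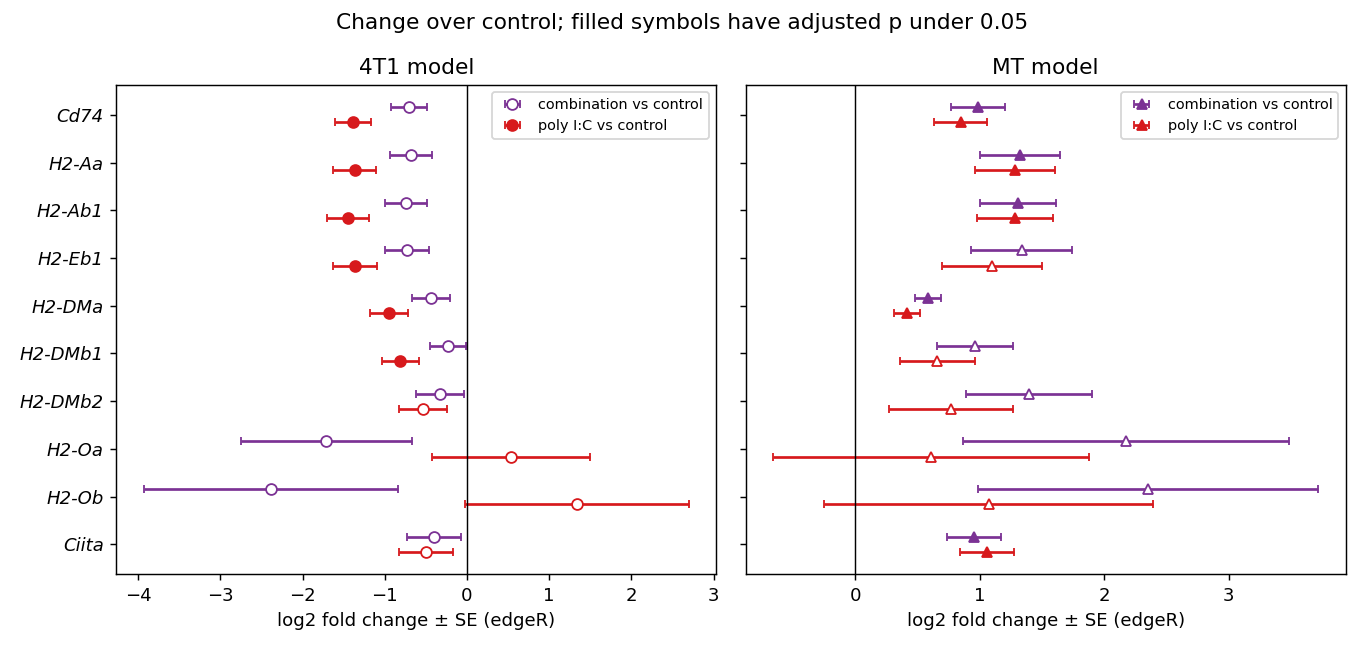
Log2 fold change over control (points, with SE bars) of each of the 10 genes for the combination and for poly I:C, in 4T1 (left, circles) and MT (right, triangles), from edgeR. Filled symbols have an adjusted p under 0.05: 6 genes lower with poly I:C in 4T1, and 5 genes higher with each treatment in MT.

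The combination of poly I:C and phenformin was also set against control in MT tumours. Against MT controls the combination called 5 of 10 members higher and 0 lower, namely Cd74, Ciita, H2-Aa, H2-Ab1 and H2-DMa, as with poly I:C alone, where 6.14% of all genes were called (2.81% higher and 3.33% lower). Cd74 had 3302, 2856, 2911 and 3821 CPM with the combination, a log2 fold change over control of 0.99 ± 0.22 (SE, edgeR adjusted p = 0.0283). H2-Aa had 2122, 1819.7, 1761 and 2409 CPM (1.33 ± 0.32, adjusted p = 0.0357). H2-Ab1 had 976, 1159.7, 1168 and 1399.8 CPM (1.31 ± 0.31, adjusted p = 0.0336). Every one of these libraries lay above every MT control.

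H2-DMa had 145, 138, 146 and 153 CPM with the combination in MT (0.59 ± 0.11 log2 over control, SE, edgeR adjusted p = 0.0182). Ciita had 151, 72.4, 94.2 and 86.3 CPM (0.95 ± 0.22, edgeR adjusted p = 0.0308), with replicate 1 well above the other three. H2-Eb1, with 95.9, 72.6, 75.8 and 82.7 CPM, and H2-DMb1, with 177, 157, 147 and 177 CPM, did not overlap the controls either but did not pass (edgeR adjusted p = 0.0602 and 0.0689). H2-DMb2 had 204, 83.4, 79.7 and 111 CPM, and its lowest library overlapped control replicate 4 (edgeR adjusted p = 0.0959). The combination and poly I:C comparisons share the control libraries.

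The direct comparison of the MT combination with poly I:C called 0 of the 10 members (edgeR, 0% of all genes), 0 at an unadjusted p under 0.05, and 0 by DESeq2 and by voom. The log2 differences were 0.14 ± 0.21 for Cd74, 0.04 ± 0.31 for H2-Aa and 0.03 ± 0.30 for H2-Ab1 (SE), which does not show that the arms were alike. Against phenformin, edgeR called 0 members with the MT combination (0.106% of all genes, 0.0784% higher and 0.028% lower). By other counts, 5 had p under 0.05 before adjustment (13.2% of all genes), 1 was called with DESeq2 (1.5% of all genes) and 7 with voom (30.7% of all genes). H2-DMa was the only member without overlap there, at 0.41 ± 0.11 log2 (SE, edgeR adjusted p = 0.228).

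In 4T1 tumours the mean levels of Cd74, H2-Aa, H2-Ab1 and H2-Eb1 with the combination lay between those of poly I:C and control. Cd74 had 1217, 1101, 1088 and 1654 CPM, H2-Aa 562, 522, 464 and 914 CPM and H2-Ab1 307, 325, 267 and 555 CPM. H2-Eb1 had 388, 367, 335 and 737 CPM, and replicate 4 was the highest of the 4 for each of these genes. H2-DMa ranged from 51.8 to 106 CPM, H2-DMb1 from 96.7 to 189 CPM, H2-DMb2 from 48.3 to 101 CPM and Ciita from 22.3 to 70.0 CPM. Against controls edgeR called 0 of the 10 members (0% of all genes). All 10 of 10 had a log2 fold change below 0, though the members vary together across libraries. Of these, 4 had an unadjusted p under 0.05 (Cd74 -0.70 ± 0.22, H2-Aa -0.68 ± 0.26, H2-Ab1 -0.74 ± 0.25 and H2-Eb1 -0.73 ± 0.27 log2, SE). That p was reached by 11.9% of all genes, and DESeq2 called 1 member (2.29% of all genes) and voom 0 (1.3%). H2-Oa and H2-Ob were lower in all 4 combination libraries than in all 4 controls, with H2-Oa at 0.920, 0.790, 0.567 and 0.802 CPM, but did not pass (-1.71 ± 1.04 and -2.39 ± 1.55 log2, SE, edgeR adjusted p = 0.561 and 0.586).

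Against poly I:C, the 4T1 combination had 0 members called by edgeR (0.246% of all genes, 0.149% higher and 0.0974% lower), 8 with an unadjusted p under 0.05 (19.6% of all genes), and 1 called by DESeq2 (5.43%) and 1 by voom (9.04%). Of those 8, 6 had a positive log2 difference and 2 a negative one, H2-Oa at -2.25 ± 1.04 and H2-Ob at -3.72 ± 1.57 (SE). Cd74 was higher in all 4 combination libraries than in all 4 poly I:C libraries, by 0.68 ± 0.22 log2 (SE, edgeR adjusted p = 0.12). H2-Ab1 stood at 0.71 ± 0.25 and H2-DMb1 at 0.58 ± 0.22 log2, with overlapping groups. Without the libraries with Acta1 above 10 CPM, which include combination replicates 1 and 4, the log2 differences of Ciita, H2-DMb2 and H2-Eb1 turned to -0.64, -0.50 and -0.02. Against phenformin the 4T1 combination had 0 members called (0% of all genes), 7 with an unadjusted p under 0.05 (2174 of 17445 genes), and 0 by DESeq2 and voom.

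Phenformin alone called 0 members in either model (edgeR, 0% of all genes in both), with 0 at an unadjusted p under 0.05 and 0 by DESeq2 and voom in each. In 4T1 Cd74 had 2734, 2159.7 and 1633 CPM and Ciita 62.8, 60.01 and 31.3 CPM in the 3 phenformin libraries, overlapping the controls. H2-Ab1 had 829.5, 646 and 479 CPM and H2-Eb1 1091, 768 and 601 CPM there, and H2-DMa 144, 115 and 81.2 CPM. In MT all 10 members had a positive log2 fold change, but they vary together across libraries, so these signs are not independent. Cd74 had 1646, 1719, 2197 and 3206 CPM with phenformin in MT (0.45 ± 0.21 log2, SE, edgeR adjusted p = 0.813). H2-Ab1 had 431, 429.8, 824 and 1060.0 CPM, above all controls in replicates 3 and 4 and among them in replicates 1 and 2. Ciita had 61.7, 57.9, 63.5 and 80.2 CPM with phenformin, above all 4 controls, but did not pass (0.35 ± 0.21 log2, SE, edgeR adjusted p = 0.835). The interaction, the combination over phenformin minus poly I:C over control, called 0 members in either model (0% of all genes). In 4T1, 2 had an unadjusted p under 0.05, which 9.33% of all genes had (H2-Oa and H2-Ob, at -3.17 ± 1.45 and -4.87 ± 2.12 log2, SE), and in MT 0 had, with 0 by DESeq2 and voom in both.

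Other genes of the pathway were taken from a list of 37 that act on class II supply, its peptides or its regulation. With poly I:C in 4T1, 3 of the 37 fell and 0 rose, with a median log2 fold change of -0.13. Of all genes, 3.26% were higher and 3.06% lower in that comparison. The 3 were H2-Ea-ps, Ctss, the protease that trims the invariant chain (-0.85 ± 0.19 log2, SE, edgeR adjusted p = 0.0202), and Spi1, the myeloid factor PU.1 (-0.64 ± 0.18, adjusted p = 0.0477). Ctss had 373, 392, 585 and 497 CPM with poly I:C, against 676, 1000.1, 997 and 708 CPM in controls, without overlap. The combination called 0 of the 37 in 4T1 (edgeR, 0% of all genes).

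In MT, poly I:C raised 13 of the 37 and lowered 3, with a median of 0.93, where 8.52% of all genes were higher and 11.1% lower. The 3 lowered genes are thus a share near that of all genes. Ctss had the smallest p of the list, with 940.5, 1127, 961 and 889 CPM with poly I:C, against 255, 319, 341 and 319 CPM in controls (1.68 ± 0.23 log2, SE, edgeR adjusted p = 0.00145). The lysosomal proteases Lgmn and Ctsb rose by 1.04 ± 0.17 and 0.86 ± 0.17 log2, the cytokine receptor kinase Jak2 by 0.91 ± 0.15, Spi1 by 1.35 ± 0.28 and the cytokine Il10 by 1.78 ± 0.40 (SE, edgeR adjusted p between 0.0023 for Lgmn and 0.00945 for Il10). Rfxap and Rfxank, which encode subunits of the RFX complex, fell by 1.06 ± 0.19 and 0.88 ± 0.16 log2 (edgeR adjusted p = 0.00331 and 0.00347). Rfxap had 20.96, 15.9, 18.1 and 17.9 CPM with poly I:C, against 41.1, 45.2, 38.9 and 28.1 CPM in controls. The MT combination raised 7 of the 37 and lowered 2, where 2.81% of all genes were higher and 3.33% lower, so the 2 lowered are near that share. Rfxap stood at -0.76 ± 0.19 and Ctss at 1.32 ± 0.23 log2 there. For the difference of the poly I:C responses, 4T1 minus MT, 3 of the 37 were higher and 11 lower (Ctss -2.54 ± 0.30, Rfxap 0.92 ± 0.23 log2). Of all genes, 5.7% were higher and 5.42% lower for that difference, so the 3 higher are near that share. Between controls, 4T1 over MT, 9 were higher and 9 lower, near the 51.9% called among all genes.

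Macrophage markers moved with the members in both models. Of 12 markers, 6 fell and 0 rose with poly I:C in 4T1, and 11 rose and 0 fell in MT (edgeR). Of all genes, 3.26% were higher and 3.06% lower in 4T1, and 8.52% and 11.1% in MT. MT control replicates 1 to 3 had Sox10 above 10 CPM, unlike the MT poly I:C libraries. Their summed level was 1317 to 2115 CPM with poly I:C and 3138 to 4751 CPM in controls of 4T1. In MT it was 2062 to 2632 CPM with poly I:C and 630.0 to 801 CPM in controls. The defining marker Csf1r changed by -0.94 ± 0.20 log2 in 4T1 and by 1.79 ± 0.21 in MT (SE, edgeR adjusted p = 0.0178 and 0.000898). With the combination the sum was 1987 to 3240.3 CPM in 4T1 and 1482 to 2756 CPM in MT, and with phenformin 3223 to 4539 and 722 to 1688 CPM.

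Measured per macrophage marker signal, Cd74 did not move as its level did. Log2 Cd74 per macrophage sum was -0.38, -1.33, -1.75 and -1.17 with poly I:C in 4T1, against -0.97, -1.13, -0.96 and -0.62 in controls, so the groups overlapped. In MT it was 0.10, 0.13, 0.49 and 0.45 with poly I:C, against 1.06, 0.98, 1.21 and 1.37 in controls, lower in all 4. Log2 Cd74 per summed general leukocyte markers was -0.15 to 0.76 with poly I:C in 4T1, below the 1.23 to 1.62 of controls without overlap. In MT the groups overlapped by that measure, at 0.96 to 1.90 with poly I:C and 1.27 to 2.57 in controls. Over libraries the r of log2 Cd74 with the log2 macrophage sum was 0.84 in 4T1 (n = 15) and 0.88 in MT (n = 16), with rho 0.86 and 0.81. That of Ciita was 0.41 in 4T1 and 0.80 in MT (rho 0.42 and 0.79). Without the 2 farthest libraries r was 0.86 and 0.84 for Cd74 and 0.62 and 0.76 for Ciita. Dendritic cell markers, 11 in the list, summed to 308 to 412 CPM with poly I:C and 339 to 522 CPM in controls of 4T1, with 1 of the 11 lower. In MT they summed to 329.9 to 475 CPM with poly I:C and 111 to 348 CPM in controls, with 3 of the 11 higher. Flt3, the defining dendritic cell marker, had 0.820 to 7.98 CPM over all 4T1 arms and 0.531 to 32.5 CPM over all MT arms. Of other marker lists, the fibroblast sum was higher without overlap in both models, at 5003 to 12718 CPM with poly I:C and 3191 to 4925 CPM in controls of 4T1 (2 of 7 markers rose) and at 1612 to 1935 and 622 to 1115 CPM in MT (4 of 7 rose). With poly I:C 2 of 8 neutrophil markers rose in 4T1 and 6 of 8 in MT. In MT 1 of the 8 had a negative log2 fold change, of -3.47, and was not called. The neutrophil sum in MT was 127 to 384 CPM with poly I:C (median 267) and 22.05 to 2468 CPM in controls (median 941). In 4T1 it was 506 to 1412 and 259 to 678 CPM. General leukocyte markers summed to 454 to 1067 CPM with poly I:C and 640.3 to 896 CPM in controls of 4T1 (0 of 6 called) and to 681 to 1736 and 251 to 837 CPM in MT (3 of 6 rose). Beside these marker counts, 3.26% of all genes were higher and 3.06% lower with poly I:C in 4T1, and 8.52% and 11.1% in MT. The part of these cell types in the results was not tested.

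**Figure D5:**
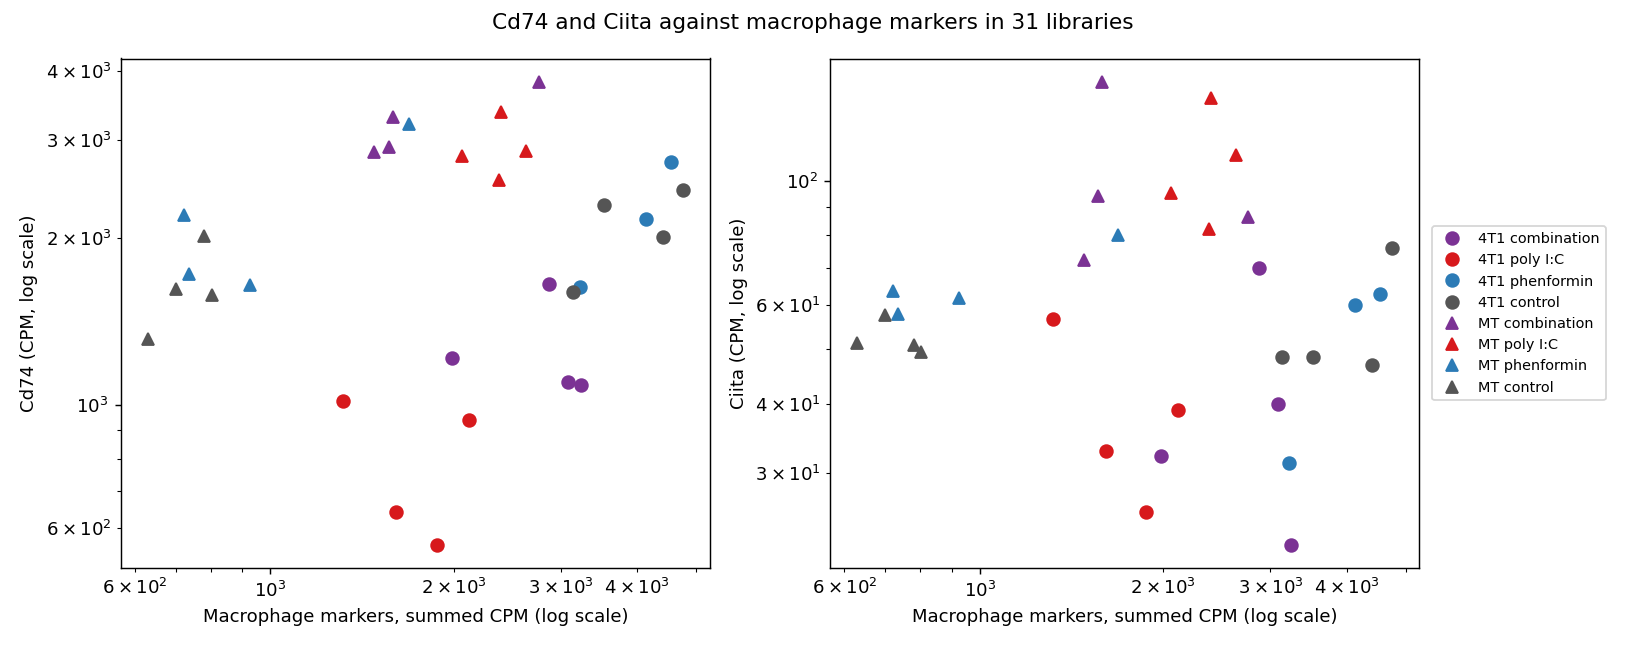
Cd74 (left) and Ciita (right) in CPM against the summed CPM of 12 macrophage markers, with 1 point per library (circles 4T1, triangles MT, colours for the arms) and log scales on both axes. Within each model Cd74 climbs with the sum, and the MT libraries carry more Cd74 per macrophage sum (log2 0.10 to 1.61) than those titled 4T1 (log2 -1.75 to -0.38).

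Tissue content other than leukocytes also differed between libraries that these results rest on. In MT, Sox10 was above 10 CPM in control and phenformin replicates 1 to 3 (34.4 to 211 CPM) and in 0 of the poly I:C or combination libraries. Sox10 marks neural crest and some mammary tumour cells. Without those 6 libraries, which leaves 1 control that is assumed to vary like the other groups, the poly I:C count of 5 members became 0, with log2 fold changes of 0.55 for Cd74, 1.11 for Ciita, 0.73 for H2-Aa and 0.65 for H2-Ab1 (edgeR adjusted p between 0.291 and 0.429). The combination count of 5 became 0 too. Those fits called 0 of 18955 genes, so the loss of calls covers the whole table and not the members alone. With log2 Krt5 to Sox10 as a covariate, which keeps all MT libraries, the poly I:C count was 0 where 9.04% of all genes were called. The log2 fold changes were then 0.38 for Cd74, 0.49 for H2-Aa, 0.49 for H2-Ab1, 0.29 for H2-DMa and 0.997 for Ciita (edgeR adjusted p = 0.303, 0.293, 0.198, 0.201 and 0.0569). In 4T1, Acta1, a muscle actin, was above 10 CPM in poly I:C replicates 2 and 3, combination replicates 1 and 4 and phenformin replicate 4 (18.5 to 227 CPM). Without these 5 libraries the poly I:C count of 6 became 0, although Cd74 stood at -1.08, H2-Aa at -1.04, H2-Ab1 at -1.20 and H2-Eb1 at -1.11 log2 (edgeR adjusted p between 0.147 and 0.151). That fit called 0 of 17540 genes.

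Single libraries changed some calls. The shares of all genes called in these fits are not given here, so the counts below do not show a loss particular to the members. In 4T1, H2-DMb1 lost its poly I:C call in 7 of the 8 fits with 1 library left out and H2-DMa in 6 of 8, while H2-Eb1 lost it only without poly I:C replicate 2 (adjusted p = 0.0519), where the count was 3. Cd74, H2-Aa and H2-Ab1 kept theirs in all 8. In MT the poly I:C count was 3 without control replicate 1 or without control replicate 2, where Ciita and H2-Ab1 kept their calls. The MT combination count was 0 without control replicate 1, control replicate 2 or combination replicate 4, 1 without control replicate 3 or combination replicate 3, 2 without combination replicate 2 and 8 without control replicate 4. The difference between the models' poly I:C responses kept its 7 members in all 16 such fits.

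Per kilobase of exon, the order of levels in 4T1 controls was Cd74, H2-Eb1, H2-Aa, H2-Ab1, H2-DMb1, H2-DMb2, H2-DMa, Ciita, H2-Oa and H2-Ob. The means were 1241 ± 220.3 CPM per kb for Cd74, 394 ± 90.7 for H2-Eb1, 264 ± 57.4 for H2-Aa and 239 ± 58.1 for H2-Ab1 (SD, n = 4). H2-Aa and H2-Ab1 were within their spread of each other, and Cd74 was above all others without overlap. H2-DMb1 averaged 91.9 ± 15.7, H2-DMb2 46.8 ± 11.4, H2-DMa 30.6 ± 5.37 and Ciita 5.76 ± 1.47 CPM per kb (SD, n = 4). In MT controls Cd74 (972 ± 173), H2-Aa (214 ± 77.1) and H2-Ab1 (186 ± 71.9 CPM per kb) came first, and H2-Eb1 (16.8 ± 9.51) was the seventh, below the H2-DM genes. H2-Oa and H2-Ob came last in both.

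The genes whose pattern was most like the class II chains were sought in each model, over log2 CPM and with the mean of Cd74, H2-Aa, H2-Ab1 and H2-Eb1 as the pattern. Among 14255 genes in the 15 libraries titled 4T1, Pearson r was highest for Mir5107 (0.991) and H2-Ea-ps (0.991), followed by 2210016L21Rik (0.954) and Tlr12 (0.922). Mir5107 lies within Cd74 on the same strand. Among 14501 genes in the 16 libraries titled MT it was highest for Pycard, the inflammasome adaptor (0.989), followed by Mir5107 (0.98), Gna15 (0.974), Egr2 (0.971) and Amica1 (0.969). Within groups, after removing group means, r was 0.963 for Mir5107, 0.972 for H2-Ea-ps and 0.784 for Tlr12 in 4T1, and 0.973 for Pycard and 0.907 for Egr2 in MT. Of the genes named here, Mir5107 was the one that both models shared.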

How the data were processed

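Libraries were strand-specific and made from polyA RNA, per the labels' protocols. The values are raw counts per gene that the authors deposited in 1 table, and per the submitters' processing notes Trimmomatic 0.32.48, STAR 2.3.0, featureCounts 1.4.4 and the builds mm10 and GRCm38 were used, with the strand setting not given in the sources used here. The table held 39017 genes, of which 8371 were at 0 in every library, and 37607 gene IDs were found in the GENCODE M21 annotation used for coordinates. Unused columns numbered 0. Titles gave each library its group. The totals per library set the counting precision, which is lowest for H2-Oa and H2-Ob.

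Counts were fitted with edgeR 4.0.16 in R 4.3.3 (glmQLFit and glmQLFTest, filterByExpr with a minimum count of 10 and a minimum total of 15, TMM scaling), in 1 fit per model over its 4 groups and in 1 joint fit of 8 groups for comparisons between models. P-values were adjusted by Benjamini-Hochberg over all genes tested, and genes under 0.05 were called. The SE is the log2 fold change over the square root of F. CPM used the TMM-scaled library sizes of the joint fit, while the Acta1, Igkc and Sox10 limits of 10, 100 and 10 CPM used library totals. Log2 CPM for likeness and for the correlations of same-numbered libraries had a prior count of 2. The other relations across libraries used log2 CPM without a prior count. Genes had to average 1 or more on the log2 CPM scale to be ranked for likeness. Alternatives were DESeq2 1.42.0, its size factors in edgeR, no filter, a CPM filter, voom with quality weights (limma 3.58.1), only the groups compared, a replicate block, a covariate of log2 Krt5 to Sox10 in MT, and fits without single libraries or those over the limits. The test was also run on simulated data.

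All 10 members were named. Of the pathway list, genes called with poly I:C were named, at most 8 with the smallest p in each model, with H2-Ea-ps, and of each marker list its first marker. Likeness named the first 5 genes per model. Some genes that this rule picks are not reported here. The members, the lists and the limits were chosen with earlier results of these data known.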

Additional observations from a re-analysis of the deposited data

Results flagged for a closer look

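In groups of 4 libraries, a value was singled out when its gap to the nearest other value, over the range of the group, passed Dixon's 95% limit. Of 70 such groups 16 had one. For independent, normally distributed values about 1 in 20 would (3.5 groups). These values were CPM on the linear scale, and the members vary together across the same libraries. The 16 groups against 3.5 therefore do not measure an excess over chance. H2-Oa and H2-Ob account for 10 of the 16. H2-Oa stood out at 13.0 CPM in 4T1 poly I:C replicate 1, 6.02 CPM in 4T1 control replicate 4, 17.7 CPM in MT poly I:C replicate 3, 44.1 CPM in MT phenformin replicate 4 and 14.3 CPM in MT control replicate 4. H2-Ob stood out in the same libraries, at 37.7, 9.69, 40.1, 91.8 and 24.2 CPM in that order.

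The other values that stood apart from their groups were those of Ciita in 4T1 control replicate 3 (75.9 CPM), H2-DMb1 in MT control replicate 4 (135 CPM) and H2-DMb2 in 4T1 combination replicate 4 (101 CPM) and MT poly I:C replicate 3 (110.3 CPM). H2-Eb1 did so in 4T1 combination replicate 4 (737 CPM) and MT control replicate 4 (60.05 CPM). MT control replicate 4 is also the MT control with a low neural crest-like marker sum, 29.9 CPM, against 202 to 253 CPM in the other MT controls.

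The poly I:C response, 4T1 minus MT, differed from 0 in the joint edgeR fit for 7 members. The log2 differences were -2.23 for Cd74, -2.65 for H2-Aa, -2.72 for H2-Ab1, -2.46 for H2-Eb1, -1.36 for H2-DMa, -1.48 for H2-DMb1 and -1.55 for Ciita. Model, strain and cell line differ together and cannot be told apart.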

How the results depend on the processing

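Counts below are members called, and log2 values are given to the direction of each comparison. Of the alternatives other than leaving out 1 library, 551 values kept direction and call, 44 lost the call, 23 gained one and 32 turned sign. With 1 library left out, these numbers were 565, 46, 7 and 22. The cause was not tested, except that fits without libraries have fewer samples.

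Shares of all genes called stand in brackets. DESeq2 called 1 member for the 4T1 combination over control (2.29%), 1 over poly I:C (5.43%), 8 for the MT combination over control (16.6%) and 1 over phenformin (1.5%). Voom called 1 for the 4T1 combination over poly I:C (9.04%), 9 for MT poly I:C over control (59.6%), 9 for the MT combination over control (52.5%), 7 over phenformin (30.7%) and 6 for control 4T1 over MT (65.6%), where the members are near the share of all genes. With voom, 4T1 poly I:C over control gave -0.81 for H2-Oa and -3.15 for H2-Ob, the 4T1 combination over poly I:C 1.44 for H2-Ob, control 4T1 over MT 0.21 for H2-Oa, and the response difference -5.11 for H2-Ob. With only the groups compared, the MT combination over control called 0 (0.305%), and Ciita between controls was -0.004 (-0.001 with at least 1 CPM in 4 libraries).

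Without the Acta1 libraries, 4T1 poly I:C over control called 0 (0%), the combination over poly I:C gave -0.644 for Ciita, -0.022 for H2-Eb1 and -0.495 for H2-DMb2, and the response difference 0.795 for H2-Oa. Without the Igkc libraries, 4T1 poly I:C over control called 4 (1.49%) and the response difference 6 (7.4%). H2-Oa and H2-Ob were then -1.19 and -3.39 for 4T1 poly I:C over control and 0.28 and 2.01 for the combination over poly I:C. H2-Ob was -4.46 for the response difference.

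Without the Sox10 libraries, MT poly I:C over control called 0 (0%), the MT combination over control 0 (0%), control 4T1 over MT 1, without H2-DMb1 (35.5%), and the response difference 3 (2.27%). MT poly I:C over control then gave -0.083 for H2-DMb2, -1.01 for H2-Oa and -0.576 for H2-Ob, control 4T1 over MT -0.258 for H2-Aa, -0.27 for H2-Ab1 and -0.024 for H2-DMb2, and the response difference 1.55 for H2-Oa. With the Krt5 to Sox10 covariate both MT comparisons with control called 0 (9.04% for poly I:C and 0% for the combination), the combination gave 0.56 for Cd74, 0.594 for H2-Aa and 0.579 for H2-Ab1, and poly I:C gave -0.186 for H2-DMb1, -0.353 for H2-DMb2, -1.43 for H2-Oa and -0.75 for H2-Ob.

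With 1 library left out, counts ran from 3 to 6 for 4T1 poly I:C over control and 3 to 7 for MT poly I:C over control. They ran from 0 to 8 for the MT combination over control and 0 to 1 for it over phenformin. For control 4T1 over MT they ran from 2 to 3, and for the response difference from 7 to 8. The shares of all genes called in these fits are not given here. For the 4T1 combination over poly I:C, Ciita ran from -0.319 to 0.324, H2-DMb2 from -0.133 to 0.496, H2-Oa from -2.62 to 0.275 and H2-Ob from -4.16 to 2.01. For 4T1 poly I:C over control, H2-Oa ran from -1.996 to 1.36 and H2-Ob from -4.40 to 2.37, and in MT H2-Oa from -0.429 to 2.25. Between controls, Ciita ran from -0.126 to 0.14, H2-Oa from -1.67 to 0.805 and H2-Ob from -2.05 to 0.732. For the response difference, H2-Oa ran from -2.62 to 0.983 and H2-Ob from -5.49 to 1.32.

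The main fits did not use the replicate numbers to pair the libraries. In 4T1, 6 of 21 same-numbered pairs had a correlation of deviations over 0.1 (median -0.054, against 0.041 for unlike numbers). In MT, 12 of 24 had (median 0.104, against 0.003). Single same-numbered pairs in MT ran from -0.806 to 0.781, so these values cannot decide whether the numbers pair the libraries. With the replicate number as a block, edgeR called 5 members for 4T1 poly I:C over control (4.76% of all genes). In MT it called 6 for poly I:C (18.4%) and 6 for the combination (3.5%), each over control. The block gave -0.115 for H2-Oa and -0.025 for H2-Ob in 4T1 poly I:C over control, 0.848 and 1.02 between controls, and -2.36 for H2-Ob in the response difference. H2-Oa had 7 to 223 reads per library in 4T1 and 12 to 967 in MT, and H2-Ob 1 to 634 and 24 to 1959.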
